A study of Mus musculus with 18 samples.

Results

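Autophagy genes encode the proteins that wrap parts of the cell in a double membrane, the autophagosome, and deliver them to the lysosome. A list of 33 such genes was followed under stress of the endoplasmic reticulum (ER) in B16 F10.9-4, a mouse melanoma line. The list was taken by gene symbol from genes of initiation, lipid conjugation, cargo binding and mitophagy (the removal of mitochondria). No rule on measured change was used, but earlier results of these data were known when the list was chosen. A probe set with a single gene symbol was found for 32 of the 33, among 19938 genes measured in this way, and the brightest probe set stood for each gene. The level of Optn was not analysed here. Tunicamycin, which blocks N-glycosylation and loads the ER with misfolded protein, was given for 5 or 12 h. Doxycycline was given beforehand to some cultures to switch on LIP, the short isoform of C/EBP-beta, which lacks the activation domains of the longer isoforms. There were 6 groups: vehicle (0 h, neither agent), doxycycline alone (0 h), tunicamycin alone (5 h or 12 h) and both agents (5 h or 12 h of tunicamycin). Each group had 3 arrays from 3 independent experiments, and all groups share the line with its doxycycline-driven LIP.

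The design limits every comparison in the same way. No array of vehicle kept for 5 or 12 h was analysed here, so time in culture and tunicamycin cannot be told apart. No doxycycline array of cells without inducible LIP was analysed here, so doxycycline and LIP cannot be told apart either. In bulk RNA, fewer cells with a transcript and less transcript per cell cannot be told apart.

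Autophagy starts when the ULK kinase complex, held in check by mTORC1 in fed cells, switches on a lipid kinase complex at the ER membrane. The membrane then grows with the help of lipid-carrying proteins, and a chain of enzymes attaches ATG8-family proteins to it, where cargo receptors dock. ER stress is known to feed into this system through the transcription factors ATF4 and CHOP, and in mouse fibroblasts short of amino acids these factors raise several autophagy genes.

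Levels are log2 intensities, on which a difference of 1 is a doubling, and levels of different probe sets are not set against each other. All 32 genes lay above 6.08, the 95th percentile of 1190 olfactory and vomeronasal receptor genes taken here to be mostly silent. In vehicle, the lowest of the 32 probe set means was 7.85 (Atg14) and the highest 12.50 (Gabarap). The labels were borne out by the controls. Cebpb, whose probe set reads all isoforms of its gene, LIP included, was higher by 1.84 with doxycycline at 0 h, and the CHOP gene Ddit3 was higher by 2.89 after 12 h of tunicamycin. The BiP gene Hspa5 changed by -0.01 at 5 h, a difference that did not pass the test, and was higher by 0.69 at 12 h. Of the melanocyte markers 7 of 7 lay above the receptor percentile, with a mean between 11.40 and 11.96 in the 6 groups. Markers of other cell types lay above it for 1 of 5 leukocyte genes (Cd3e), 1 of 4 endothelial genes (Cdh5), 1 of 4 epithelial genes (Cdh1) and 3 of 5 fibroblast genes (Col1a1, Col1a2 and Pdgfra). The residual spread of an array, taken over all genes, ran from 0.0606 to 0.113 and was highest in the 5 h tunicamycin array of experiment 2.

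After 5 h of tunicamycin without doxycycline, the 32 listed genes were lower or did not pass the test. Of the 32, 9 fell and 0 rose, where 4.94% of all genes fell and 4.08% rose (limma, Benjamini-Hochberg adjusted p under 0.05 over all genes). All genes include those below the receptor percentile, where none of the 32 lay. A fit of the 13283 genes at or above it called 1199 lower and 925 higher, and also called Rb1cc1 lower (limma adjusted p = 0.0364). Counts of the 32 here and below come from the fit of all genes, unless another setting is named. The differences were below 0 for 30 of the 32 and for 8702 of all 19938 genes, with a median of -0.10 against 0.02 over all genes. The genes that fell were Bnip3, Atg101, Gabarapl1, Wipi1, Ulk1, Atg10, Nbr1, Pik3r4 and Atg9a. Each 5 h array showed the shift: the median deviation of the 32 genes from the vehicle mean was -0.08, -0.15 and -0.11 in experiments 1, 2 and 3, with 25, 31 and 29 genes below it. Such counts by array were not made for all genes. The count without 1 array ran from 6 to 9. With arrays weighted by quality it was 15, of which 14 were lower and 1 higher, and under that setting 10.7% of all genes were lower and 11.3% higher.

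After 12 h the picture was mixed. Without doxycycline 14 genes passed (27.7% of all genes did): 9 rose (11.9% of all genes) and 5 fell (15.8%), with a median of -0.02 against 0.00 over all genes. The genes that rose were Atg13, Nbr1, Sqstm1, Rb1cc1, Map1lc3a, Atg10, Atg12, Wipi2 and Atg3, and those that fell were Tfeb, Ulk1, Bnip3, Pik3r4 and Map1lc3b. From 5 to 12 h, 14 genes rose (11.4% of all genes) and 2 fell (13.6%), with a median of 0.13 against -0.03 over all genes. Of the 13283 genes at or above the receptor percentile, 2467 were higher and 3335 lower at 12 h. From 5 to 12 h it was 2393 and 2863. The fit of these genes also called Wipi1 higher at 12 h against 0 h (limma adjusted p = 0.0397). The 3 comparisons share arrays, so their counts are not independent of each other. At both times 3 genes were lower (Bnip3, Pik3r4 and Ulk1), 2 were lower at 5 h and higher at 12 h (Atg10 and Nbr1), and 14 passed the test at neither time. These patterns were not counted over all genes.

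**Figure D1:**
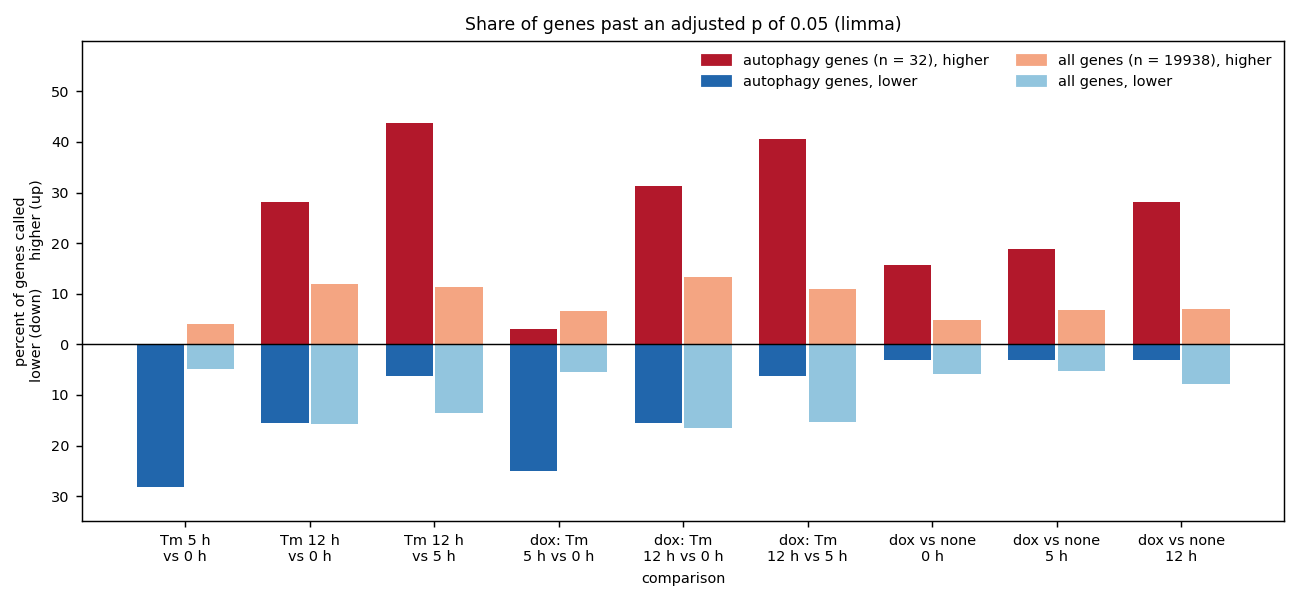
Percent of genes called higher (bars above 0) or lower (bars below 0) at an adjusted p under 0.05 in each of 9 comparisons, for the 32 autophagy genes (dark) and all 19938 genes (pale). For 5 h of tunicamycin against 0 h the dark bars run downward (9 genes lower and 0 higher) or mainly so (8 lower and 1 higher with doxycycline), and for 12 h against 5 h they run mainly upward.

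With doxycycline the counts were close to these. At 5 h 8 genes were lower (5.56% of all genes) and 1 was higher (6.54%), with a median of -0.10 against -0.01 over all genes. At 12 h 15 passed (29.9%), of which 10 were higher (13.4%) and 5 lower (16.6%), with a median of 0.03 against -0.02. From 5 to 12 h 13 rose (10.9%) and 2 fell (15.4%), with a median of 0.10 against -0.02. Of the 13283 genes at or above the receptor percentile, 1275 were lower and 1516 higher at 5 h. At 12 h 2760 of them were higher and 3432 lower. The comparisons with doxycycline use other arrays than those without doxycycline, but from the same 3 experiments and with a spread estimated in the same fit. Genes lower at 5 h in both were 7, out of 9 without and 8 with doxycycline. Genes higher at 12 h in both were 8, out of 9 and 10, and genes lower at 12 h in both were 4, out of 5 and 5. How many of all genes were shared in this way was not counted. Leaving out 1 array took the count at 5 h with doxycycline as low as 3: it was 4 without the doxycycline array of experiment 2 or the doxycycline and tunicamycin array of experiment 2, and 3 without the doxycycline array of experiment 3. Without the last of these, 954 of all genes were higher and 723 lower, against 1304 and 1109 with all arrays.

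**Figure D2:**
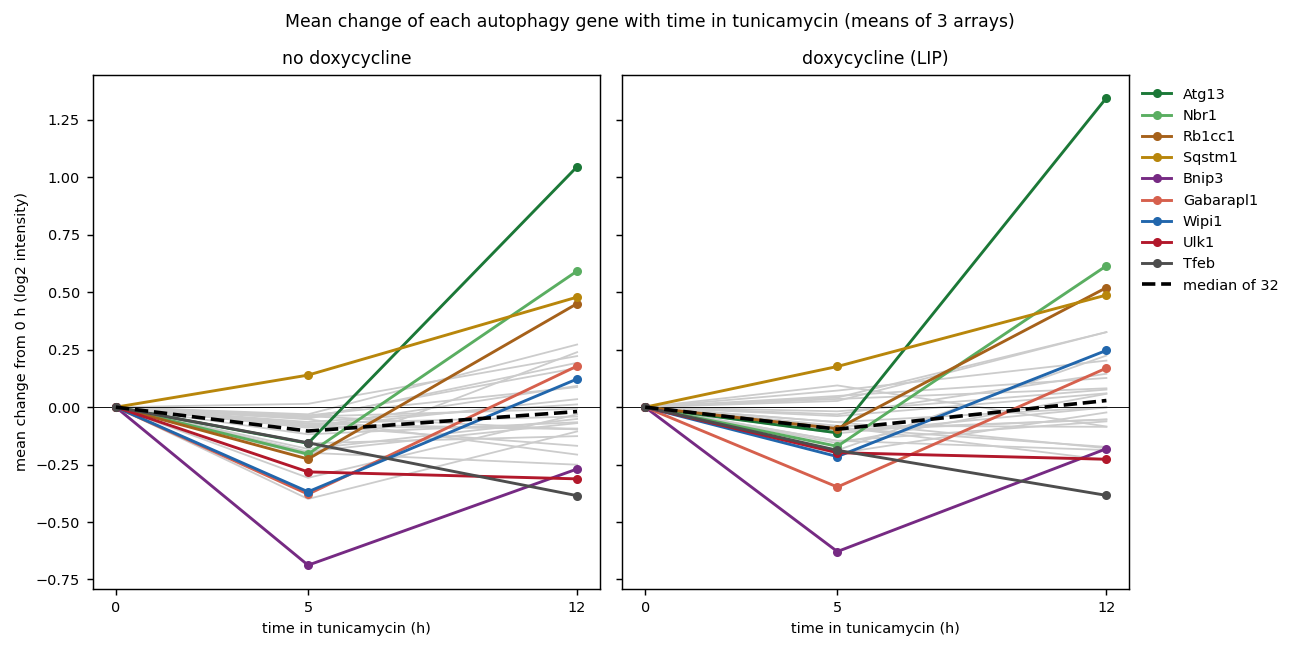
Mean change from 0 h (log2 intensity, vertical axis; means of 3 arrays) against hours of tunicamycin, without doxycycline (left) and with it (right); coloured lines are named genes, grey lines the other autophagy genes, and the dashed line the median of 32. The dashed line dips to -0.10 at 5 h in both panels, and Atg13 ends highest, at 1.05 on the left and 1.35 on the right.

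**Figure D3:**
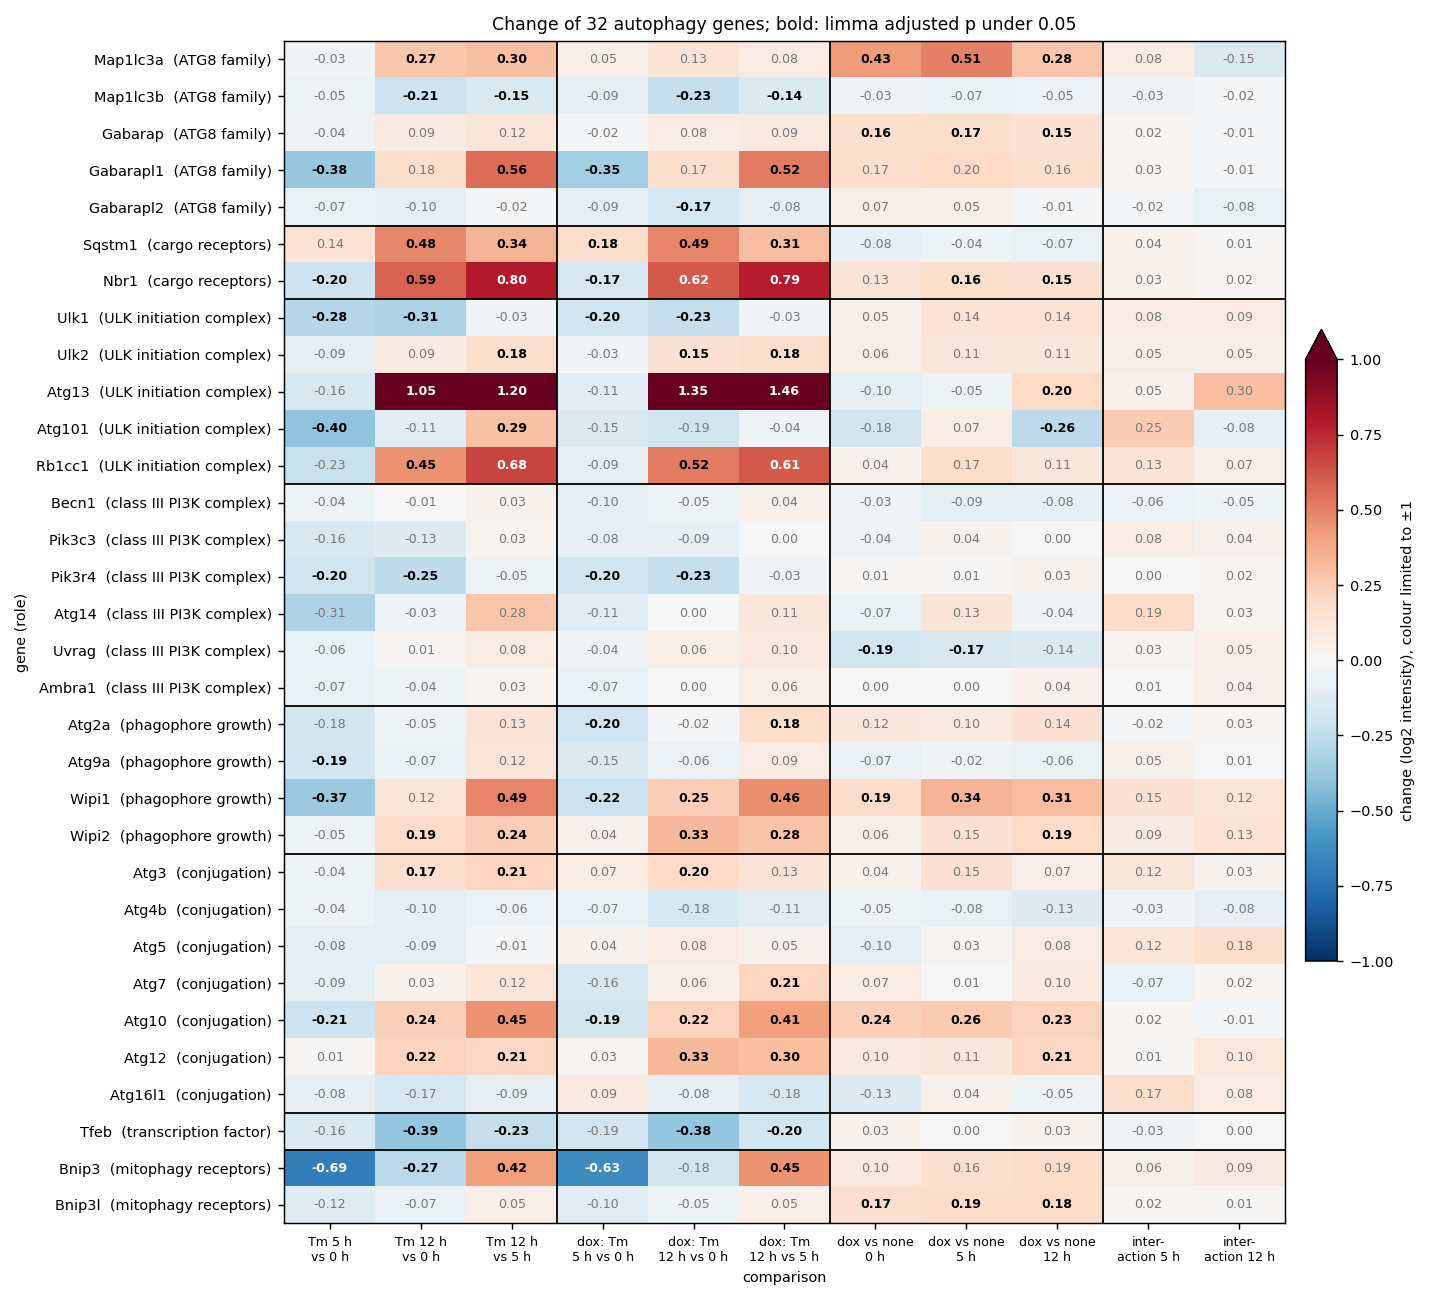
Change of each of the 32 autophagy genes (rows, by role) in the 9 comparisons and 2 interactions (columns), in log2 intensity, with colour limited to ±1; bold marks an adjusted p under 0.05. Atg13 holds the darkest red cells (1.05 to 1.46) and Bnip3 the darkest blue (-0.69 and -0.63).

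The ULK complex, which starts autophagy, did not move as a unit. Its scaffold subunit Atg13 had the largest rise among the 32 genes at 12 h. Atg13 stood at 9.97, 9.91 and 9.98 in vehicle, at 9.77, 9.82 and 9.79 after 5 h and at 10.93, 10.98 and 11.09 after 12 h. With doxycycline it stood at 9.90, 9.80 and 9.86 at 0 h, at 9.75, 9.65 and 9.83 at 5 h and at 11.24, 11.09 and 11.27 at 12 h. All 6 arrays of 12 h thus lay above all 12 others. The rise at 12 h was 1.05 ± 0.0589 (SE, n = 3 a group; 2.07-fold; limma adjusted p = 1.21e-10), and with doxycycline 1.35 (2.54-fold; adjusted p = 3.34e-12). Both kept their call with any 1 array left out. The doxycycline difference in this rise was 0.30 (95% interval 0.12 to 0.47), with an adjusted p of 0.0795. That difference passed the test with the experiment as a block (adjusted p = 0.0257), with array weights (0.0426), with a trended robust variance (0.0257) and without the doxycycline and tunicamycin 12 h array of experiment 2 (0.0241).

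Rb1cc1, the large scaffold also called FIP200, rose as well. Its vehicle levels of 8.86, 9.06 and 8.93 went with 8.74, 8.66 and 8.78 at 5 h and 9.30, 9.47 and 9.43 at 12 h. With doxycycline the levels were 8.84, 9.07 and 9.06 at 0 h, 8.86, 8.89 and 8.94 at 5 h and 9.42, 9.53 and 9.59 at 12 h. The 12 h arrays lay above every 0 h and 5 h array in both series, and the rise from 0 h was 0.45 ± 0.0706 without (limma adjusted p = 5.56e-05) and 0.52 with doxycycline (9.51e-06). At 5 h without doxycycline the difference of -0.23 had an adjusted p of 0.0537, and it passed the test with the experiment as a block (0.0205).

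Ulk1, the kinase of the complex, went the other way. In vehicle it stood at 9.27, 9.24 and 9.32, after 5 h at 8.95, 9.05 and 8.98, and after 12 h at 8.90, 8.92 and 9.08. With doxycycline the arrays gave 9.32, 9.29 and 9.37 at 0 h, 9.06, 9.07 and 9.26 at 5 h and 9.00, 9.15 and 9.15 at 12 h. The groups did not overlap the 0 h arrays of their series at either time. Ulk1 fell by 0.28 at 5 h (SE 0.0631; limma adjusted p = 0.0077) and by 0.31 at 12 h (0.000741). With doxycycline it fell by 0.20 at 5 h (adjusted p = 0.0474) and by 0.23 at 12 h (0.00912). The call at 5 h with doxycycline was lost when any array was left out other than the doxycycline and tunicamycin array of experiment 3 (adjusted p up to 0.188). At 12 h with doxycycline it was lost without the doxycycline and tunicamycin array of experiment 1 (0.0609).

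Atg101, which steadies Atg13, dipped at 5 h. Its vehicle arrays read 9.36, 9.31 and 9.24, its 5 h arrays 8.94, 8.83 and 8.95, and its 12 h arrays 9.12, 9.21 and 9.26. With doxycycline they read 9.05, 9.13 and 9.19 at 0 h, 8.91, 8.85 and 9.17 at 5 h and 8.77, 9.15 and 8.88 at 12 h. Without doxycycline the 5 h arrays lay below all others, while with doxycycline the 3 times overlapped. The fall at 5 h without doxycycline was -0.40 ± 0.0867 (limma adjusted p = 0.0062), against -0.15 with doxycycline, which did not pass, and the difference between the falls, 0.25, did not pass either. Ulk2, the related kinase, was higher at 12 h with doxycycline (0.15, limma adjusted p = 0.036), and its difference of 0.09 without doxycycline did not pass. That call was lost when the doxycycline array of experiment 1 or 2, or the doxycycline and tunicamycin array of experiment 2 or 3, was left out (adjusted p up to 0.119).

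The 12 genes with the largest calls against 0 h are shown by array.

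**Figure D4:**
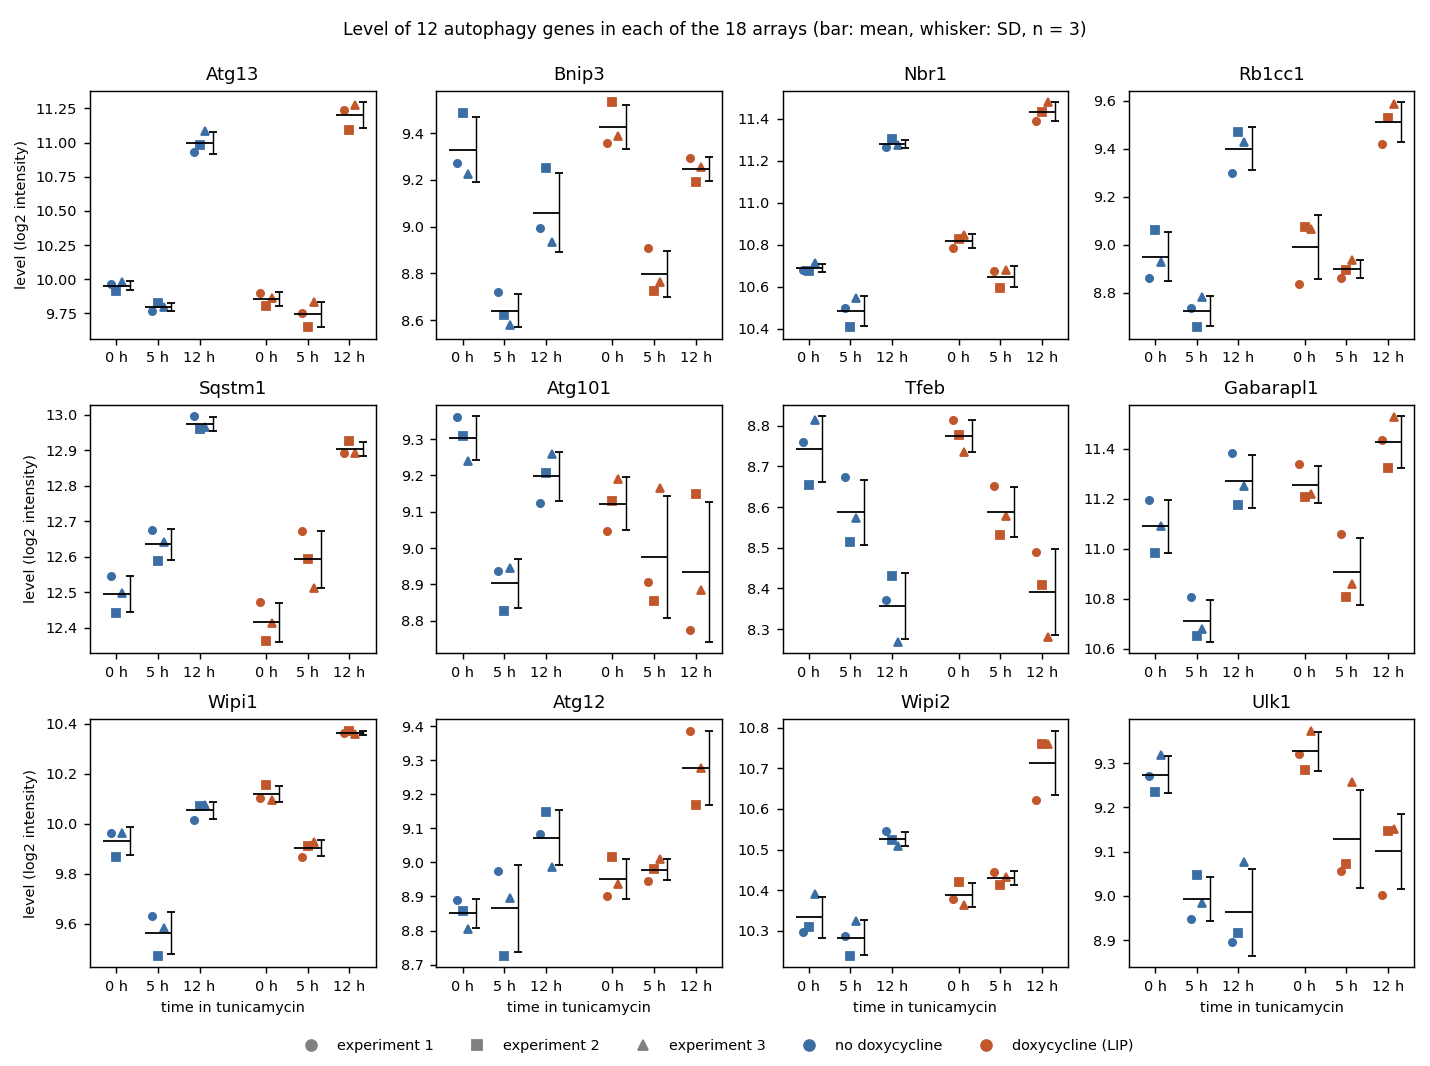
Level (log2 intensity, own vertical scale for each gene, not starting at 0) of 12 autophagy genes in all 18 arrays at 0, 5 and 12 h of tunicamycin, without (blue) and with doxycycline (orange); symbols mark the experiment, bars the mean and whiskers the SD (n = 3). The 6 arrays of 12 h stand apart at the top for Atg13, Nbr1, Rb1cc1 and Sqstm1, and within each series the 5 h arrays lie lowest for Bnip3, Gabarapl1 and Wipi1.

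Both measured cargo receptors, which tie ubiquitin-marked cargo to the growing membrane, were higher at 12 h. Nbr1 stood at 10.68, 10.67 and 10.71 in vehicle, at 10.50, 10.41 and 10.55 at 5 h and at 11.27, 11.30 and 11.27 at 12 h. Its doxycycline arrays held 10.78, 10.83 and 10.85 at 0 h, 10.67, 10.59 and 10.68 at 5 h and 11.39, 11.43 and 11.48 at 12 h. In both series the 5 h arrays lay below and the 12 h arrays above those of 0 h. Nbr1 fell by 0.20 at 5 h (SE 0.0469; limma adjusted p = 0.00924) and rose by 0.59 at 12 h (1.51-fold; 1.24e-08). The 5 h call was lost without the 5 h tunicamycin array of experiment 2 (0.0541). With doxycycline the changes were -0.17 (limma adjusted p = 0.0214) and 0.62 (6.02e-09). The -0.17 was lost without the doxycycline array of experiment 2 or 3 or the doxycycline and tunicamycin array of experiment 2 (up to 0.11).

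Sqstm1, which encodes p62, showed no dip at 5 h. Vehicle arrays held 12.55, 12.44 and 12.50, those of 5 h 12.68, 12.59 and 12.64, and those of 12 h 13.00, 12.96 and 12.97. The doxycycline series held 12.47, 12.36 and 12.41, then 12.67, 12.59 and 12.51, then 12.89, 12.93 and 12.89. Levels thus went up at each step in both series. The rise at 12 h was 0.48 ± 0.0496 (1.39-fold; limma adjusted p = 4.05e-07) and with doxycycline 0.49 (2.66e-07). At 5 h it was 0.14 without doxycycline (adjusted p = 0.0926) and 0.18 with it (0.0236). The call on 0.18 was lost when the doxycycline array of experiment 2 or 3, or the doxycycline and tunicamycin array of experiment 1 or 2, was left out (up to 0.124).

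Among the 5 ATG8-family genes, whose products coat the autophagosome, no common direction was seen. Gabarapl1 dipped and returned. It stood at 11.20, 10.98 and 11.09 in vehicle, at 10.81, 10.65 and 10.68 at 5 h and at 11.38, 11.17 and 11.25 at 12 h. With doxycycline it stood at 11.34, 11.21 and 11.22, then at 11.06, 10.81 and 10.86, then at 11.43, 11.32 and 11.53. In both series the 5 h arrays lay below all of 0 and 12 h, which overlapped each other. The fall at 5 h was -0.38 ± 0.0775 (limma adjusted p = 0.00414) and -0.35 with doxycycline (0.00508), and the rise from 5 to 12 h was 0.56 (1.77e-05) and 0.52 (3.82e-05). At 12 h against 0 h the differences of 0.18 and 0.17 did not pass, but did with the experiment as a block (0.014 and 0.0178).

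Map1lc3b, which encodes the common autophagosome marker LC3B, was lower at 12 h, with levels of 11.33, 11.29 and 11.36 in vehicle and 11.10, 11.15 and 11.11 at 12 h. The fall was -0.21 ± 0.0467 (limma adjusted p = 0.00199), and -0.23 with doxycycline (0.00071). Map1lc3a, for LC3A, went up instead, from 8.26, 8.21 and 8.34 in vehicle to 8.50, 8.65 and 8.48 at 12 h, by 0.27 (limma adjusted p = 0.00331). With doxycycline its 0 h and 12 h arrays overlapped, and the difference of 0.13 did not pass (0.177). Gabarapl2 was lower only at 12 h with doxycycline, by -0.17 (0.00319), and Gabarap passed no test of tunicamycin against 0 h.

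Bnip3, a receptor in the outer mitochondrial membrane that draws mitochondria into autophagosomes and is a known hypoxia target, had the largest fall of the 32 genes at 5 h. It read 9.27, 9.49 and 9.23 in vehicle, 8.72, 8.62 and 8.58 at 5 h and 8.99, 9.25 and 8.93 at 12 h. With doxycycline it read 9.36, 9.53 and 9.39 at 0 h, 8.91, 8.72 and 8.76 at 5 h and 9.29, 9.19 and 9.26 at 12 h. In both series the 5 h arrays lay below all others, and without doxycycline those of 12 h overlapped vehicle. The fall at 5 h was -0.69 ± 0.0829 (1.61-fold lower; limma adjusted p = 3.54e-05) and -0.63 with doxycycline (4.61e-05), and it kept its call with any 1 array left out. At 12 h it was -0.27 (0.019), a call lost without the vehicle array of experiment 2 (-0.19, 0.129) or the 12 h tunicamycin array of experiment 1 or 3. Bnip3l, the related receptor also called NIX, passed no test of tunicamycin, with -0.12 at 5 h and -0.07 at 12 h.

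For Bnip3, Bnip3l, Map1lc3b and Gabarapl2 the brighter of 2 probe sets stood among probe set numbers whose genes lie on another chromosome than the gene itself, and the dimmer stood among neighbours on the gene's own chromosome. Whether the brighter sets also read copies of these genes elsewhere was not tested. The dimmer set of Bnip3 read 8.29, 8.56 and 8.28 in vehicle and 8.00, 7.68 and 7.94 at 5 h, a fall of -0.50 (limma adjusted p = 0.00527). Its return from 5 to 12 h was 0.19 and did not pass (0.226), against 0.42 for the brighter set. The sets of Map1lc3b gave -0.19 (dimmer) and -0.21 (brighter) at 12 h, and both passed. For Gabarapl2 the dimmer set lay at 5.97 in vehicle, below the receptor percentile, and its change of -0.18 at 12 h with doxycycline did not pass (0.375).

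**Figure D5:**
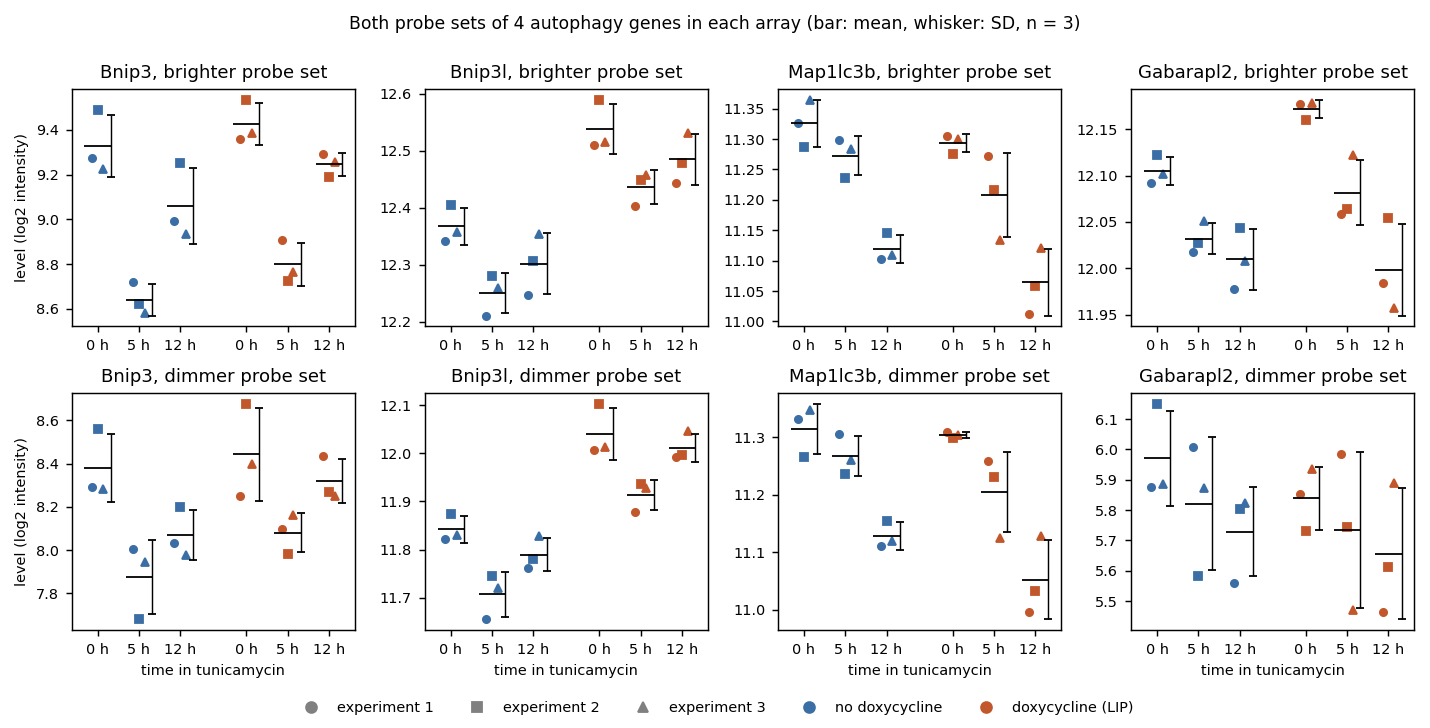
Level (log2 intensity, own vertical scale, not starting at 0) of the brighter (top) and dimmer (bottom) probe set of 4 autophagy genes in all 18 arrays at 0, 5 and 12 h, without (blue) and with doxycycline (orange); symbols mark the experiment, bars the mean and whiskers the SD (n = 3). The 5 h dip of Bnip3 is seen in both rows, -0.69 above and -0.50 below.

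Promoter sequence from RefSeq (GRCm38.p6) was looked at for known elements in the 250 bases before each start. Of the 33 listed genes, 26 have an entry among the 32851 promoters there. Shown are Bnip3 and Atg101, the deepest falls at 5 h, Atg13, the largest rise, and Atg3, the only one of the 26 with the core of the element that TFEB binds. Capitals mark ACGTG or its complement, the core of the hypoxia element, in Bnip3 (bases -108 to -103, where both strands match) and Atg101 (-172 to -168). In Atg3 they mark TCACGTGA (-72 to -65), and Atg13 has none to mark. The regions are chr7:138909507-138909756 on the minus strand, chr15:101284051-101284300 on the plus strand, chr2:91710593-91710842 on the minus strand and chr16:45158579-45158828 on the plus strand.
Bnip3: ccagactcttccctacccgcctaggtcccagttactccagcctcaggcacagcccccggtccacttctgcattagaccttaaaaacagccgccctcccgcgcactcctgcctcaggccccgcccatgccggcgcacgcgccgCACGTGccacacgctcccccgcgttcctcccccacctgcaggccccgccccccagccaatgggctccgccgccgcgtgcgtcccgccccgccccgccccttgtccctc
Atg101: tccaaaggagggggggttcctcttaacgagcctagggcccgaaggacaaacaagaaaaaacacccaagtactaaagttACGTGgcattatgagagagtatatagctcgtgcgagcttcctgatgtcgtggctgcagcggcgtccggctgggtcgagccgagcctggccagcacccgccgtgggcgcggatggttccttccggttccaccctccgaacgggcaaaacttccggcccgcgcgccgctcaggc
Atg13: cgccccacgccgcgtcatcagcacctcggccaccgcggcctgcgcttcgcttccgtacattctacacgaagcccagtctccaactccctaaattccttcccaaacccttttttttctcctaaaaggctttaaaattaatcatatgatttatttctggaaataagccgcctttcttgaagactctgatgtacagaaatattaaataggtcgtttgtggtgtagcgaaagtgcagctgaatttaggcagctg
Atg3: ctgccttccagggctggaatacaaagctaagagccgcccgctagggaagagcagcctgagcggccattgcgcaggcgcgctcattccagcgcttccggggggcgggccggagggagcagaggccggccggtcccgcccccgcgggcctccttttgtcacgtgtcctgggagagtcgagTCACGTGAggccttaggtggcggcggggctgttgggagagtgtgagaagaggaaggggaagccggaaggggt
On both strands, ACGTG was found in 11 of the 29 promoters listed for these 26 genes (37.9%), 1 for each of 11 genes, against 16.6% of all promoters. These 250-base windows had a median GC content of 59.6% for the autophagy genes and 52.4% for all promoters, and its part in the share was not tested. Of the 9 genes that fell at 5 h, all in the table, 5 held ACGTG (Nbr1, Atg101, Pik3r4, Atg9a and Bnip3). Of the 6 that rose at 12 h and are in the table it was 2. CACGTG, which holds ACGTG, was found in 4 of the 29 (Atg3, Atg5, Atg7 and Bnip3; 6.02% of all promoters), and TCACGTGA in 1 (0.785%). TTGCNNAA, a C/EBP core, was found in 3 (Atg14, Atg7 and Atg9a; 9.56%). TGATGNAA, an ATF4 composite core, was found in 0 (3.45%), as was GTAAACA, a FOXO core (3.17%), and the ER stress element ERSE (0.113%). A match is a description of letters, not a site.

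The lipid kinase complex, which marks the membrane where the autophagosome forms, moved little. Of its 6 genes only Pik3r4, the regulatory subunit, passed a test of tunicamycin. It stood at 9.80, 9.83 and 9.83 in vehicle, at 9.67, 9.60 and 9.59 at 5 h and at 9.53, 9.57 and 9.60 at 12 h. It fell by 0.20 at 5 h (limma adjusted p = 0.0107) and by 0.25 at 12 h (0.000343), and by 0.20 and 0.23 with doxycycline. The first call was lost without the 5 h tunicamycin array of experiment 3 (0.0525), and the 5 h call with doxycycline without the doxycycline array of experiment 3 (0.0568). Becn1, Pik3c3, Atg14, Uvrag and Ambra1 passed none of these tests; Atg14 changed by -0.31 at 5 h with an SE of 0.133.

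In membrane growth, Wipi1, which reads the lipid mark, dipped at 5 h and came back. Its levels were 9.96, 9.87 and 9.96 in vehicle, 9.63, 9.47 and 9.58 at 5 h and 10.01, 10.07 and 10.08 at 12 h. With doxycycline they were 10.10, 10.15 and 10.10, then 9.87, 9.91 and 9.93, then 10.36, 10.37 and 10.36. In both series 5 h was lowest and 12 h highest, with no overlap. The change was -0.37 ± 0.0483 at 5 h (limma adjusted p = 8.27e-05) and 0.12 at 12 h, which did not pass (0.0699). With doxycycline it was -0.22 (0.00532) and 0.25 (0.000488). The doxycycline difference in the 5 h fall, 0.15, had an adjusted p of 0.579.

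Wipi2, which recruits the conjugation machinery, did not dip. It stood at 10.30, 10.31 and 10.39 in vehicle, at 10.29, 10.24 and 10.32 at 5 h and at 10.54, 10.52 and 10.51 at 12 h. With doxycycline the arrays read 10.38, 10.42 and 10.36, then 10.44, 10.41 and 10.43, then 10.62, 10.76 and 10.76. The 12 h arrays lay above all others of their series, by 0.19 (limma adjusted p = 0.00401) and, with doxycycline, 0.33 (2.15e-05) against 0 h. Atg9a, the membrane-spanning lipid scramblase, fell by 0.19 at 5 h (0.0214), a call lost without the 5 h tunicamycin array of experiment 1 or 3 or the vehicle array of experiment 2 or 3 (up to 0.102). Atg2a, which carries lipid, passed at 5 h with doxycycline (-0.20, 0.0346), a call lost without any 1 doxycycline array, or the doxycycline and tunicamycin array of experiment 2 or 3 (up to 0.165).

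In the conjugation chain, 3 of 7 genes were higher at 12 h in both series. Atg12, the ubiquitin-like protein that is joined to Atg5, stood at 8.89, 8.86 and 8.80 in vehicle, at 8.97, 8.73 and 8.90 at 5 h and at 9.08, 9.15 and 8.99 at 12 h. Its doxycycline arrays read 8.90, 9.02 and 8.94, then 8.95, 8.98 and 9.01, then 9.39, 9.17 and 9.28. The 12 h arrays lay above all others in both series. The rise was 0.22 (limma adjusted p = 0.0154) and, with doxycycline, 0.33 ± 0.0662 (0.000684), and the first was lost without the 12 h tunicamycin array of experiment 2 or the vehicle array of experiment 3 (up to 0.0742).

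Atg10, the enzyme that joins Atg12 to Atg5, dipped and then rose, from 9.79, 9.76 and 9.76 in vehicle to 9.56, 9.54 and 9.57 at 5 h and 9.93, 10.05 and 10.05 at 12 h. The changes were -0.21 (limma adjusted p = 0.0313) and 0.24 (0.00397), and with doxycycline -0.19 (0.0439) and 0.22 (0.00591). The -0.21 was lost when any 1 of its 6 arrays was left out (0.0618 to 0.106), and the -0.19 when any was left out other than the doxycycline and tunicamycin array of experiment 3 (up to 0.211). Atg3, which joins ATG8 proteins to lipid, rose by 0.17 at 12 h (0.0262) and by 0.20 with doxycycline (0.00799). The 0.17 was lost without the vehicle or 12 h tunicamycin array of experiment 2 or 3 (up to 0.0886), and the 0.20 without the doxycycline array of experiment 1 (0.0644). Atg4b, Atg5, Atg7 and Atg16l1 passed no test of tunicamycin against 0 h.

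Tfeb, the transcription factor that drives lysosome and autophagy genes, was lower at 12 h. Its arrays read 8.76, 8.65 and 8.81 in vehicle, 8.67, 8.51 and 8.57 at 5 h and 8.37, 8.43 and 8.27 at 12 h. With doxycycline they read 8.81, 8.78 and 8.74, then 8.65, 8.53 and 8.58, then 8.49, 8.41 and 8.28. The 12 h arrays lay below all others in both series. The fall was -0.39 ± 0.0636 (1.31-fold lower; limma adjusted p = 9.73e-05) and -0.38 with doxycycline (8.93e-05). At 5 h the differences of -0.16 and -0.19 did not pass, and the second did with the experiment as a block (0.0448).

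Doxycycline against none gave mostly higher levels among the autophagy genes that passed the test. At 0 h 5 were higher (4.89% of all genes) and 1 lower (5.82%), at 5 h 6 were higher (6.76%) and 1 lower (5.21%), and at 12 h 9 were higher (6.95%) and 1 lower (7.77%). The medians were 0.04, 0.08 and 0.09, against 0.02, -0.01 and 0.00 over all genes. Of the 13283 genes at or above the receptor percentile, 1111 were higher and 1421 lower at 0 h. At 5 h it was 1511 and 1207, and at 12 h 1537 and 1706. Higher at all 3 times, a count not made for all genes, were 5 autophagy genes, Map1lc3a, Wipi1, Atg10, Bnip3l and Gabarap. These counts moved with single arrays. At 0 h the count of 6 was 3 without the vehicle array of experiment 1 or 3 and 2 without the doxycycline array of experiment 2. At 12 h the count of 10 was 3 without the 12 h tunicamycin array of experiment 1, 4 without the doxycycline and tunicamycin array of experiment 3, and 6 without the 12 h tunicamycin array of experiment 3 or the doxycycline and tunicamycin array of experiment 1. Calls over all genes fell too. At 0 h they went from 974 higher and 1161 lower to 657 and 722 without the vehicle array of experiment 1. At 12 h they went from 1386 and 1550 to 1043 and 1362 without the 12 h tunicamycin array of experiment 1.

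Map1lc3a differed most with doxycycline. It stood at 8.26, 8.21 and 8.34 in vehicle and at 8.77, 8.72 and 8.61 with doxycycline, with no overlap. The difference was 0.43 ± 0.0655 at 0 h (limma adjusted p = 0.000267), 0.51 at 5 h (2.89e-05) and 0.28 at 12 h (0.00541), and none of the 3 calls was lost with 1 array left out. Wipi1 was higher by 0.19, 0.34 and 0.31 (limma adjusted p = 0.0162, 7.76e-05 and 0.000136), and the first was lost without the vehicle or the doxycycline array of experiment 2 (up to 0.0903). Bnip3l was higher by 0.17, 0.19 and 0.18, Gabarap by 0.16, 0.17 and 0.15, and Atg10 by 0.24, 0.26 and 0.23. Uvrag, a partner of Becn1 in late steps of the pathway, was lower by -0.19 at 0 h and -0.17 at 5 h. The second was lost when any 1 of its 6 arrays was left out (up to 0.169). Among the smaller differences single arrays decided several calls. At 0 h Gabarap lost its call without the vehicle array of experiment 1 or 3 or the doxycycline array of experiment 1 or 2 (up to 0.124), Bnip3l without the vehicle array of experiment 1 or 3 or the doxycycline array of experiment 2 (up to 0.103), and Atg10 without the last of these (0.0689). Uvrag lost its call at 0 h without the vehicle or doxycycline array of experiment 1 or 3 (up to 0.0853). At 12 h Gabarap lost its call without any array other than the doxycycline and tunicamycin array of experiment 2 (up to 0.144). Bnip3l lost it without the 12 h tunicamycin array of experiment 1 or the doxycycline and tunicamycin array of experiment 3 (up to 0.0545), and Atg10 without the former or the doxycycline and tunicamycin array of experiment 2 (up to 0.0724).

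At 12 h alone Atg13 (0.20), Wipi2 (0.19) and Atg12 (0.21) were also higher with doxycycline, Nbr1 was higher at 5 and 12 h (0.16 and 0.15), and Atg101 was lower at 12 h (-0.26; limma adjusted p = 0.0499). With 1 array left out, Wipi2 kept its call except without the doxycycline and tunicamycin array of experiment 3 (0.0538). It also lost the call in a fit of only the groups compared (0.0857). The call of Nbr1 at 5 h was lost without the 5 h tunicamycin array of experiment 1 or 2 or the doxycycline and tunicamycin array of experiment 1 or 3 (up to 0.136). The other calls at 12 h were each lost without 4 or 5 of the 6 arrays in turn, with adjusted p up to 0.124 for Atg13, 0.21 for Atg12, 0.147 for Nbr1 and 0.253 for Atg101. With the experiment as a block, Atg12 (0.0509) and Atg101 (0.0531) lost their calls at 12 h and Uvrag (0.0508) at 5 h. Over the same comparisons the melanocyte marker mean was lower with doxycycline, at 11.66 against 11.96 at 0 h, 11.58 against 11.96 at 5 h and 11.40 against 11.88 at 12 h, and its part in these results was not tested.

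The test of whether tunicamycin acted differently with doxycycline called 0 of the 32 genes at 5 h (0.0301% of all genes) and 0 at 12 h (0.993% of all genes were higher and 0.848% lower, 1.84% in all; limma). At an unadjusted p under 0.05 it was 1 gene at each time, Wipi1 at 5 h and Atg13 at 12 h. The differences ran from -0.07 (Atg7) to 0.25 (Atg101) at 5 h and from -0.15 (Map1lc3a) to 0.30 (Atg13) at 12 h. The outermost ends of the 95% intervals were -0.26 and 0.59 at 5 h and -0.37 and 0.47 at 12 h, so the data leave room for differences of up to those sizes. Ambra1, Atg14, Atg16l1, Atg4b, Atg5, Becn1 and Pik3c3 passed no test in any of the comparisons.

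Genes described in amino acid-starved mouse fibroblasts as raised by ATF4, CHOP or both were counted apart, beside all genes, of which 4.08% were higher and 4.94% lower at 5 h and 11.9% and 15.8% at 12 h. Of 6 ATF4 genes, 0 passed at 5 h, and at 12 h 2 were higher (Atg12 and Atg3) and 1 lower (Map1lc3b). Of 3 CHOP genes 1 was lower at 5 h and 1 higher at 12 h, in each case Atg10. Of 3 genes of both, 1 was lower at 5 h (Nbr1) and 2 were higher at 12 h (Nbr1 and Sqstm1). The medians at 12 h were -0.05, 0.09 and 0.48 in these classes, against 0.00 over all genes. Atf4 itself was higher by 0.36 at 5 h and 1.07 at 12 h.

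Other genes of the pathway changed in both directions. Of 25 further genes of the autophagosome machinery, 1 rose and 3 fell at 5 h (4% and 12%, against 4.08% and 4.94% of all genes). Their differences at 5 h were below 0 for 14 and above 0 for 11, with a median of -0.01 against 0.02 over all genes. At 12 h 10 rose and 8 fell (40% and 32%, against 11.9% and 15.8%), with a median of 0.02 against 0.00 over all genes. The lists that follow are read against the same shares of all genes, which include genes below the receptor percentile. Epg5, a tether for fusion with the lysosome, rose by 0.26 at 5 h and by 0.59 at 12 h. At 12 h Wdr45, a lipid-binding relative of Wipi1, rose by 0.48, and Tmem41b, an ER lipid scramblase, by 0.43. Vamp8, a SNARE of that fusion, changed by -0.40. Trp53inp1, a stress protein that binds ATG8 proteins, changed by -0.61 at 5 h. Of 6 further cargo receptors 0 passed at 5 h, and 2 were higher at 12 h (Calcoco1, 0.33, and Ncoa4, 0.19) and 1 lower (Wdfy3, -0.23). Of 6 receptors for the ER itself 0 passed at 5 h, and at 12 h Ccpg1 was higher (0.27) and Rtn3 lower (-0.19).

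Of 6 further mitophagy genes, 1 was lower at 5 h (Fundc1, -0.17) and 2 were higher at 12 h (Pink1, 0.92, and Fundc1, 0.16). Of 18 genes of the mTORC1 and AMPK pathways, which set the ULK complex, 2 were higher and 1 lower at 5 h, and 3 were higher and 3 lower at 12 h (16.7% each way, against 11.9% and 15.8% of all genes). The mTORC1 inhibitors Sesn2 and Ddit4 were higher by 0.58 and 0.54 at 5 h and by 1.34 and 1.19 at 12 h. Rragd and Fnip2, which serve mTORC1 at the lysosome, changed by -0.54 and -0.51 at 12 h. Of 8 transcription factors of autophagy genes 3 were higher at 5 h, and 4 were higher and 1 lower at 12 h. They include Atf4 and the control gene Ddit3, which were among the higher ones at both times. Tfe3, a relative of Tfeb, rose by 0.48 at 12 h, while Tfeb fell, and Zkscan3, a repressor of autophagy genes, rose by 0.39.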

How the data were processed

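RNA from 18 cultures of B16 F10.9-4 cells was hybridised to 18 Affymetrix arrays in 6 groups of 3. For 35557 probe sets the authors deposited values as log2 intensities, made with RMA and Partek (no versions stated), per the submitters' processing notes. A build for the probe sets was not given in these sources, so none of their coordinates is printed. The values were used as deposited. Of the probe sets 21789 have 1 gene symbol in the platform annotation, 1621 several and 12147 none; the brightest single-symbol set stood for each of 19938 genes. RMA understates changes of dim probe sets, and the number of arrays limits the precision. Arrays of a group correlated at 0.993 to 0.998.

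The test was limma 3.58.1 (R 4.3.3) on 6 group means over all 18 arrays and all genes, with Benjamini-Hochberg adjustment per comparison and a threshold of 0.05. It was tested on simulated data. Doxycycline and tunicamycin effects on each other were tested as interactions. The numbers of the 3 independent experiments pair the arrays, per the series' design text. Same-numbered arrays deviated together with a median correlation of 0.04 over 45 pairs, 14 of them over 0.1. The experiment as a block was an alternative, beside another choice of arrays, filter, normalization, weights, variance model or probe set, and each array left out in turn.

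All 32 genes could be named. Values by array were to be given for up to 12 with the largest called changes against 0 h of the same sign in all experiments, and were added for others where the text needed them. Of other pathway lists up to 4 genes at 12 h and 2 at 5 h were named. The members and lists were chosen with earlier results of these data known. The level of Optn is not analysed here.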

Additional observations from a re-analysis of the deposited data

Results flagged for a closer look

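The effect of 12 h of tunicamycin differed between cells without and with doxycycline for Pink1, the kinase that marks damaged mitochondria for removal, by -0.60 (SE 0.0841; limma interaction test, adjusted p = 0.00054). Its arrays read 8.56, 8.40 and 8.46 in vehicle and 9.42, 9.37 and 9.38 at 12 h, against 8.57, 8.63 and 8.58 and then 8.90, 8.92 and 8.91 with doxycycline. The rise was 0.92 without and 0.31 with doxycycline. For Cebpb, which holds the induced LIP, the interaction was -0.62 (SE 0.100, limma adjusted p = 0.00247). Its rise was 0.96 without and 0.34 with doxycycline, from a 0 h level already higher by 1.84 with doxycycline. A log2 rise is relative to the 0 h level. Rises in added amount were not tested for either gene.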

How the results depend on the processing

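Of 101 called changes of autophagy genes, 54 kept their call under every alternative run. In 1528 comparisons with an alternative 0 turned direction and 199 lost the call. The block, the fit of only the groups compared, the filter of dim genes and the variance model leave each difference as it is. Those alternatives could not turn a direction, so the 0 says nothing for them. With the experiment as a block (the pairing by experiment number), 10 genes were called at 5 h and 15 at 12 h without doxycycline, 10 and 16 with it, and 7, 7 and 8 for doxycycline at 0, 5 and 12 h. Slightly more of all genes were called with the block in each of these comparisons. For doxycycline at 12 h it was 1434 higher and 1579 lower, against 1386 and 1550. The block ended the calls of Uvrag for doxycycline at 5 h and of Atg101 and Atg12 at 12 h, and the interaction at 12 h then called 1 gene, as it did with array weights and with a trended robust variance. Array weights called 15 at 5 h without doxycycline, where they also called more of all genes (10.7% lower and 11.3% higher, against 4.94% and 4.08%). For doxycycline at 5 h a fit of only the groups compared called 3, and leaving out the 5 h array of experiment 2 and the 12 h array of experiment 3 called 4; at 12 h these gave 2 and 6. The cause was not tested. Leaving out 1 array gave, without doxycycline, 6 to 9 calls at 5 h, 12 to 14 at 12 h and 12 to 15 from 5 to 12 h, and with it 3 to 8, 13 to 15 and 11 to 15. For doxycycline it gave 2 to 5, 5 to 6 and 3 to 8 calls at 0, 5 and 12 h, and for the interactions 0 to 0 and 0 to 1. Atg12 at 5 h without doxycycline (0.01, not called) ran from -0.040 to 0.084 with 1 array left out. The dimmer probe sets were tried after seeing the data.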
